A study of Mus musculus with 4 samples.

Results

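Retinoic acid metabolism, binding and reception were followed through 9 genes in RNA sequencing libraries of mouse molar mesenchyme. The members were a fixed list of 9 gene symbols out of 22072 in the deposited tables: the synthetic enzymes Aldh1a2 and Aldh1a3, the retinal reductase Dhrs3, the degrading enzyme Cyp26b1, the binding proteins Crabp1 and Crabp2, and the receptors Rara, Rarb and Rarg. All 9 were found, each with usable estimates in all 4 libraries, and 8 of them reached a mean of 1 FPKM (fragments mapped to a transcript, scaled to its length in kilobases and to the library's mapped reads) and entered the tests. Aldh1a3, at a mean of 0.770 FPKM, did not. No other listed transcript overlapped any of the 9 loci. The list was chosen with earlier results of these data known.

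The tissue came from embryos at embryonic day 13.5 on a mixed background and was cut from frozen sections by laser capture. The mutant, Bmp4f/f;Wnt1Cre, carries 2 floxed alleles of the ligand gene Bmp4 and Wnt1Cre, a Cre driver active in neural crest, the source of tooth mesenchyme. The control, Bmp4f/+, carries 1 floxed allele, and its label names no Cre, so loss of Bmp4 and presence of Cre cannot be told apart. Mutant lower, mutant upper, control lower and control upper molars each gave 1 library, made from pooled material of 3 pairs according to the series description.

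Retinoic acid is made from retinol in successive oxidations, the last by retinaldehyde dehydrogenases such as Aldh1a2. Dhrs3 returns retinal to retinol, and the Cyp26 enzymes oxidise retinoic acid itself, so that sources and sinks set local concentrations. In the nucleus the ligand binds RAR receptors paired with RXR receptors on DNA, and cellular retinoic acid binding proteins carry it in the cytoplasm. In the embryonic face retinoic acid is known as a patterning signal for crest-derived mesenchyme, and both excess and deficiency cause craniofacial defects.

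Depth was about 4820000 to 5550000 reads on annotated transcripts per library, and 3 reads on a transcript of 2 kb would have given between 0.101 and 0.115 FPKM. Bmp4 checked the labels, with 4.90 FPKM in the mutant lower and 4.75 FPKM in the mutant upper molar, against 27.2 FPKM in the control lower and 24.8 FPKM in the control upper molar. All 10 molar mesenchyme markers were above 1 FPKM in every library, and their sum lay between 857 and 922 FPKM. Markers of other cells were present at lower sums: 10 dental epithelium markers together had 20.4 to 23.0 FPKM (Fgf8 at 0 throughout), 7 blood markers 122 to 158 FPKM and 6 muscle markers 1.07 to 1.50 FPKM, each with overlapping genotypes, and the lists whose sums separated the genotypes are given beside the results. In bulk tissue, fewer cells of a type and less RNA per cell cannot be told apart. Differences below are on log2(FPKM + 1), which understates those of weakly expressed genes, and ratios are of FPKM with an approximate 95% interval for read counting alone. With 1 library per genotype and molar, a difference within a molar has no test. limma p-values over both molars or both genotypes rest on 1 residual degree of freedom and on genes of similar level, not on the spread between embryos. Fits that leave out 1 library have no second term. Their genotype estimates and calls therefore mix in the molar difference, and those for molar mix in the genotype difference.

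**Figure D1:**
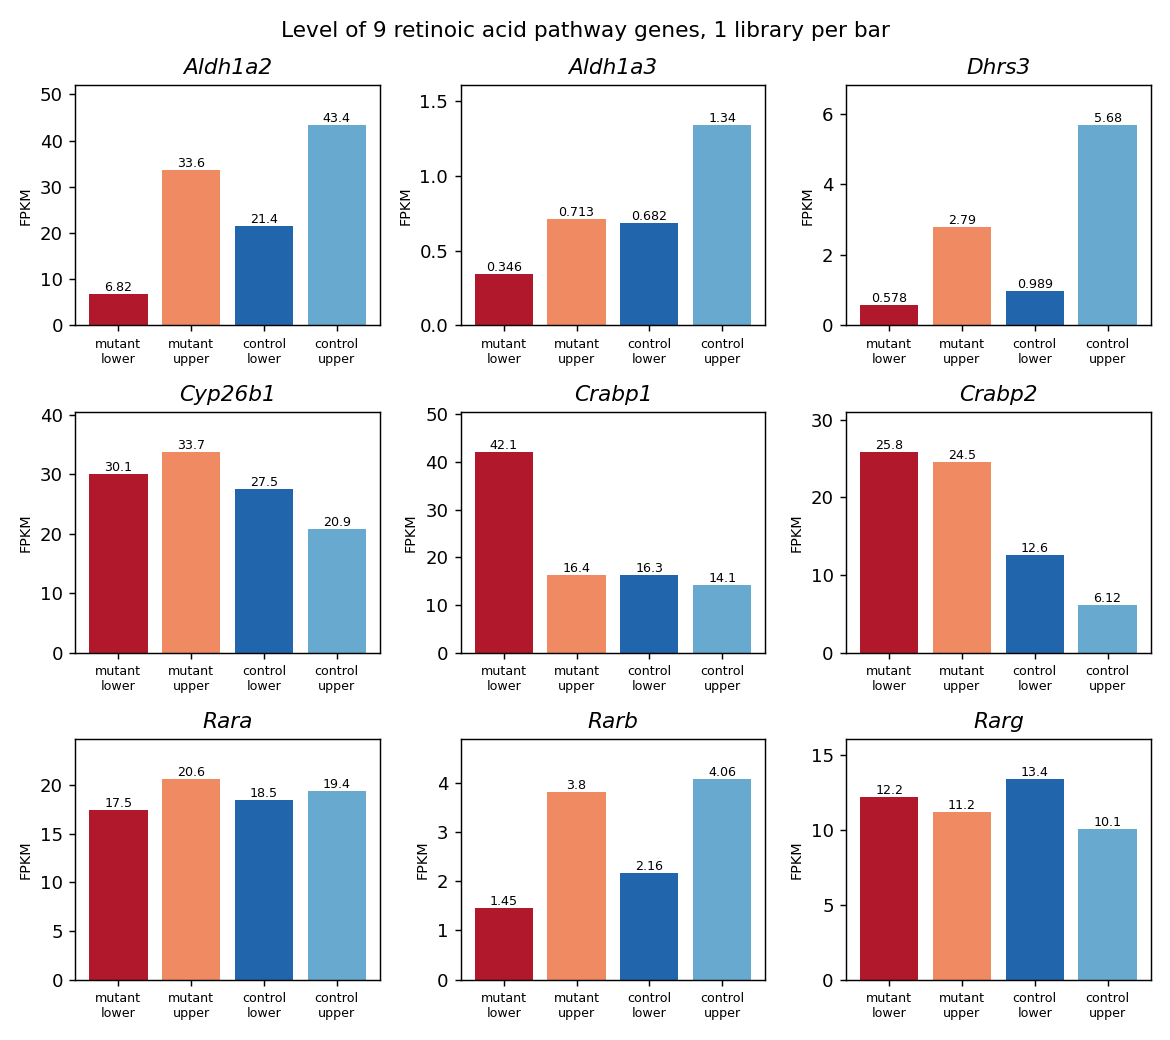
Level of each of the 9 genes in FPKM, with 1 bar per library in the order mutant lower, mutant upper, control lower and control upper molar. Aldh1a2, Aldh1a3, Dhrs3 and Rarb were lowest in the mutant lower and highest in the control upper molar. Crabp1 and Crabp2 were highest in the mutant lower molar. Rara lay between 17.5 and 20.6 FPKM, and Rarg between 10.1 and 13.4 FPKM.

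The first question was whether the machinery that makes retinoic acid differed between mutant and control. Aldh1a2 (chromosome 9, 71063596 to 71144050, mm9, 1 transcript), the main retinoic acid synthase of embryonic mesenchyme, had 6.82 FPKM in the mutant lower molar against 21.4 FPKM in the control lower molar, and 33.6 FPKM in the mutant upper molar against 43.4 FPKM in the control upper molar. Both mutant values were below the control of the same molar, but the mutant upper molar was above the control lower molar, so the genotypes overlapped. The mutant level was 0.318 of the control level in the lower molar (counting interval 0.273 to 0.371, about 217 mutant and 633 control reads) and 0.775 of it in the upper molar (0.716 to 0.840). Across both molars the estimate was -0.94 ± 0.25 (log2, SE, 2 libraries per genotype) and missed the threshold (limma adjusted p = 0.20, range over 11 alternatives 0.028 to 0.98). With the filter on low values set at 5 FPKM, limma called it lower in the mutant. Without the mutant lower library the estimate was 0.13, but that fit set the mutant upper molar against both control molars. The log2 difference was 1.16 further down in the lower than in the upper molar, and this contrast between molars cannot be tested with these libraries.

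Aldh1a3 (chromosome 7, 73535779 to 73572363), a second synthase with its own expression domains in the face, was weakly expressed. It had 0.346 and 0.713 FPKM in the mutant lower and upper molar, against 0.682 and 1.34 FPKM in the control lower and upper molar. These levels rest on about 17 to 60 reads per library, and the genotypes overlapped. The mutant level was 0.508 of the control level in the lower molar (counting interval 0.279 to 0.925) and 0.532 of it in the upper molar (0.352 to 0.805), with no test. Together the 2 synthases had 7.16 and 34.3 FPKM in the mutant lower and upper molar, against 22.1 and 44.7 FPKM in the control lower and upper molar, nearly all of it Aldh1a2.

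Dhrs3 (chromosome 4, 144482730 to 144517548), which lowers the supply of retinal and is itself induced by retinoic acid, had 0.578 FPKM in the mutant lower and 2.79 FPKM in the mutant upper molar. The control lower molar had 0.989 FPKM and the control upper molar 5.68 FPKM. The genotypes overlapped, since the mutant upper molar was above the control lower molar. The mutant level was 0.491 of the control level in the upper molar (counting interval 0.360 to 0.668), while in the lower molar about 12 mutant and 19 control reads left the ratio undetermined (0.585, 0.287 to 1.19). The genotype estimate of -0.58 ± 0.16 missed the threshold (log2, SE, limma adjusted p = 0.22). It was 0.055 without the mutant lower and 0.30 without the control upper library, in fits that do not separate genotype from molar.

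Cyp26b1 (chromosome 6, 84521408 to 84543902), which clears retinoic acid, was the abundant degrading enzyme. It had 30.1 and 33.7 FPKM in the mutant lower and upper molar, against 27.5 and 20.9 FPKM in the control lower and upper molar. Both mutant libraries were above both control libraries. The mutant level was 1.09-fold that of the control in the lower molar (counting interval 1.02 to 1.17) and 1.62-fold in the upper molar (1.51 to 1.73). The estimate of 0.39 ± 0.15 missed the threshold (log2, SE, limma adjusted p = 0.34), and it was 0.20 without the control upper library. Its paralogs Cyp26a1 and Cyp26c1 were at or under 0.106 and 0.142 FPKM in every library.

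FPKM is scaled to transcript length, so levels of the synthase and the degrading enzyme can be set side by side. The ratio of Aldh1a2 to Cyp26b1 level was 0.227 in the mutant lower and 0.998 in the mutant upper molar, against 0.778 in the control lower and 2.08 in the control upper molar. It was below the control of the same molar in both mutants, with the mutant upper molar between both controls. This is a ratio of transcript levels and no measure of enzyme activity or of retinoic acid.

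**Figure D2:**
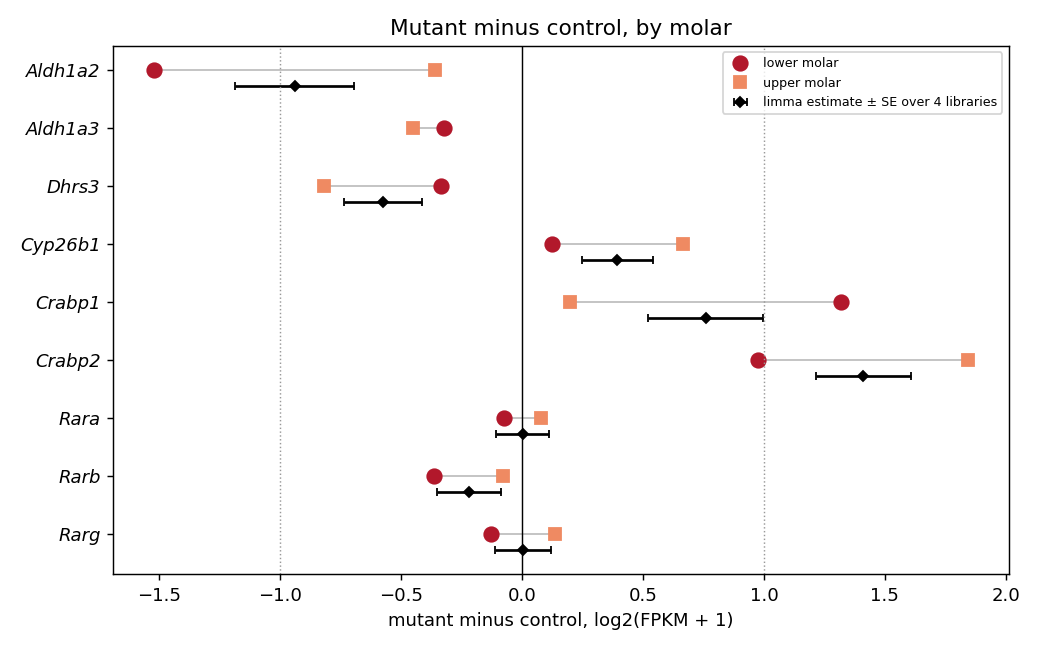
Mutant minus control on log2(FPKM + 1) for each gene, with a circle for the lower and a square for the upper molar, and the limma estimate with its SE as a diamond (not fitted for Aldh1a3). Dotted lines mark a 2-fold difference on this scale. Crabp2 lay at 0.98 in the lower and 1.84 in the upper molar, and Rara and Rarg lay on both sides of 0.

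The binding proteins were on the other side of the comparison. Crabp2 (chromosome 3, 87752615 to 87757294), which delivers retinoic acid to its nuclear receptors, had 25.8 FPKM in the mutant lower and 24.5 FPKM in the mutant upper molar. The control lower molar had 12.6 FPKM and the control upper molar 6.12 FPKM. The 2 mutant libraries were close to each other and above both controls. The mutant level was 2.05-fold that of the control in the lower molar (counting interval 1.68 to 2.48) and 4.01-fold in the upper molar (3.11 to 5.18, about 328 mutant and 72 control reads). Crabp2 rose by 1.41 ± 0.20 over both molars (log2, SE, limma adjusted p = 0.037, higher in 2 of 2 molars, range over 11 alternatives 0.00054 to 0.79). The call was lost without any 1 of the 4 libraries, after rescaling and in 4 further alternatives, while the estimate stayed between 0.94 and 1.88.

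Crabp1 (chromosome 9, 54612615 to 54620916), a cytoplasmic binding protein long used as a marker of crest-derived mesenchyme, had 42.1 FPKM in the mutant lower and 16.4 FPKM in the mutant upper molar. The control lower molar had 16.3 FPKM and the control upper molar 14.1 FPKM. The mutant lower molar stood above the other 3 libraries, which were close to each other. The mutant level was 2.58-fold that of the control in the lower molar (counting interval 2.15 to 3.10) and 1.16-fold in the upper molar (0.928 to 1.45). The estimate of 0.76 ± 0.24 missed the threshold (log2, SE, limma adjusted p = 0.27, range over 11 alternatives 0.041 to 0.97). Without the mutant upper library the estimate was 1.41, and without the mutant lower library it was 0.10, in fits that do not separate genotype from molar. Crabp1 and Crabp2 together had 67.9 and 40.9 FPKM in the mutant lower and upper molar, against 28.9 and 20.3 FPKM in the control lower and upper molar.

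Among the receptors, Rara (chromosome 11, 98799010 to 98836256) was the most abundant, with 17.5 and 20.6 FPKM in the mutant lower and upper molar against 18.5 and 19.4 FPKM in the control lower and upper molar. Rarg (chromosome 15, 102065371 to 102087914), a receptor prominent in skeletogenic mesenchyme, had 12.2 and 11.2 FPKM in the mutant lower and upper molar against 13.4 and 10.1 FPKM in the control lower and upper molar. For Rarg both mutants lay between the controls, and for Rara the mutant lower molar was below and the mutant upper molar above both controls, so the genotypes overlapped for both genes, and the estimates were 0.0026 ± 0.11 for Rara and 0.0050 ± 0.12 for Rarg (log2, SE, limma adjusted p = 0.995 and 0.992). The receptor sum was 31.1 and 35.6 FPKM in the mutant lower and upper molar, against 34.0 and 33.6 FPKM in the control lower and upper molar.

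Rarb (chromosome 14, 17263354 to 17407724), the receptor gene that is a classic direct target of retinoic acid, was the least expressed receptor. It had 1.45 FPKM in the mutant lower and 3.80 FPKM in the mutant upper molar, against 2.16 FPKM in the control lower and 4.06 FPKM in the control upper molar. The genotypes overlapped, and the upper molars were above the lower ones in each genotype. The genotype estimate of -0.22 ± 0.13 missed the threshold (log2, SE, limma adjusted p = 0.54). Rarb made up 4.67% of the receptor sum in the mutant lower and 10.7% in the mutant upper molar, against 6.34% in the control lower and 12.1% in the control upper molar.

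The best known element through which retinoic acid acts on Rarb lies just before its start site, and it is shown because Rarb is read below beside the synthase. In RefSeq's promoter table of GRCm38.p6, which differs in build from the mm9 loci above, the Rarb window is chr14:16575427-16575726 on the minus strand, from 250 bases before to 50 bases after the start. Capitals mark a direct repeat of the receptor's recognition element, from base -53 to base -37 relative to the start.
Rarb promoter: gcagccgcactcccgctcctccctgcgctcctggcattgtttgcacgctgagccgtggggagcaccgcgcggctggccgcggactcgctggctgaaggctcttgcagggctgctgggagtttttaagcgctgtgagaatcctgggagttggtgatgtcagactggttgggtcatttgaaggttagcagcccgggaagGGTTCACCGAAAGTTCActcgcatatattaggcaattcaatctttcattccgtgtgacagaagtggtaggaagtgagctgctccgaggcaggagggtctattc
The repeat was searched as GNTCANNNNNNGNTCA on both strands, and 283 of 32851 promoter windows (0.861%) held it. Of the 13 windows listed for 7 of the 9 genes, the Rarb window alone held it. A repeat with closer spacing, GNTCANNNGNTCA, was in 1.12% of windows and in none of the 13, and the single element AGGTCA was in 16.3% of windows, among them 1 window each of Rara and Rarg. Such matches describe letters in a window and do not show binding.

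For 4 genes the tables split the level over several RefSeq transcripts, which share most of their reads. Dhrs3 was mostly NM_001172424 in the control upper molar, at 4.84 of 5.68 FPKM, and mostly NM_011303 in the mutant upper molar, at 1.81 of 2.79 FPKM. For Rara, NM_001177303 was the leading transcript in every library, at 9.21 and 11.7 FPKM in the mutant lower and upper molar and 8.50 and 15.6 FPKM in the control lower and upper molar. NM_009024 of Rara was at 6.71 and 5.26 FPKM in the mutant lower and upper molar, against 5.88 FPKM in the control lower and 0.537 FPKM in the control upper molar. For Rarg, NM_011244 led with 58.3% to 80.2% of the gene's level, and for Cyp26b1 NM_001177713 had at least 88.3%. With 1 library per group the error of these shares is not known, and the summed gene levels are the values used elsewhere.

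**Figure D3:**
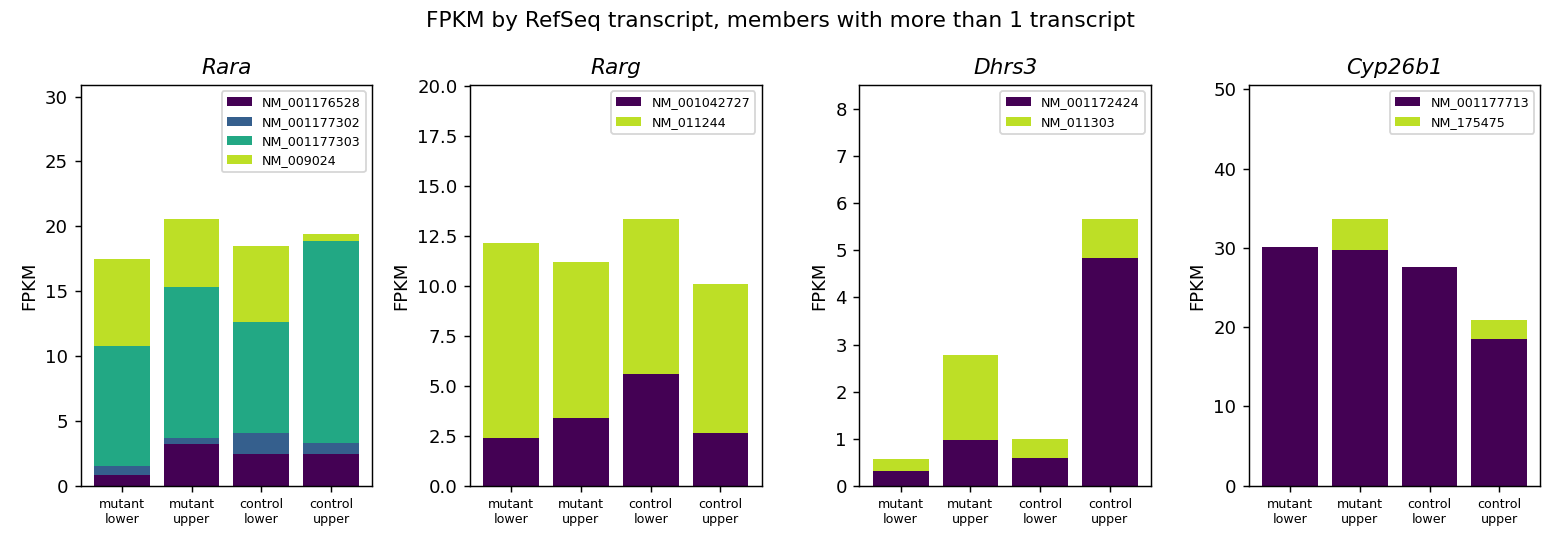
FPKM of each RefSeq transcript, stacked per library, for Rara, Rarg, Dhrs3 and Cyp26b1, in the order mutant lower, mutant upper, control lower and control upper molar. NM_009024 made up 2.76% of Rara in the control upper molar and 25.5% to 38.4% in the other 3 libraries.

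Counted together, limma called 1 of the 8 tested genes higher in the mutant (Crabp2) and 0 lower, where it called 0.343% of all 10502 tested genes higher and 0.457% lower. At an unadjusted limma p under 0.05 there were 5 of 8 (Aldh1a2, Dhrs3, Cyp26b1, Crabp1 and Crabp2), against 13.2% of all tested genes. Because the list was chosen with earlier results of these data known, such counts are no test of the pathway. The median genotype estimate of the 8 genes was 0.0038, beside -0.015 over all tested genes. On log2(FPKM + 1), 1 of the 8 differed at least 2-fold in either direction in the upper molar (Crabp2), against 1.01% of tested genes. In the lower molar 2 of the 8 did on this scale, Crabp1 higher and Aldh1a2 lower in the mutant, against 1.1% of tested genes. As ratios of FPKM, Dhrs3 in the upper molar (0.491) and Crabp2 in the lower molar (2.05) were also beyond 2-fold.

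The second comparison set lower against upper molars. Dhrs3 fell by 1.50 ± 0.16 in lower molars (log2, SE, limma adjusted p = 0.014, lower in 2 of 2 genotypes, range over 10 alternatives 0.0077 to 1). From the levels above, the lower molar was at 0.208 of the upper molar level in mutants (counting interval 0.113 to 0.381) and at 0.174 in controls (0.107 to 0.283). The call was lost without the mutant lower, the control lower or the control upper library, with estimates of -1.34, -1.67 and -1.10, and in 3 further alternatives.

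Aldh1a2 and Rarb had the same direction without passing the test. The Aldh1a2 level in the lower molar was 0.203 of that in the upper molar in mutants (counting interval 0.175 to 0.234) and 0.494 in controls (0.449 to 0.544), with an estimate of -1.57 ± 0.25 for lower minus upper (log2, SE, limma adjusted p = 0.055, range over 11 alternatives 0.0011 to 1). It was called with the filter on low values set at 5 FPKM, and the estimate was -0.80 without the mutant lower library. Rarb in the lower molar was at 0.382 of its upper molar level in mutants (0.282 to 0.518) and at 0.530 in controls (0.403 to 0.698), with an estimate of -0.83 ± 0.13 (log2, SE, limma adjusted p = 0.059). Aldh1a3 in the lower molar was at 0.486 of its upper molar level in mutants (0.272 to 0.870) and at 0.509 in controls (0.329 to 0.788).

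The binding proteins had positive estimates for lower minus upper molar, without passing the test. Crabp1 was 2.57-fold higher in the lower than in the upper molar in mutants (counting interval 2.16 to 3.05) and 1.15-fold in controls (0.915 to 1.45). Crabp2 was 1.05-fold (0.902 to 1.22) in mutants and 2.06-fold (1.56 to 2.73) in controls. The intervals of Crabp1 in controls and of Crabp2 in mutants included 1. The estimates were 0.75 for Crabp1 and 0.50 for Crabp2 (log2, limma adjusted p = 0.33 and 0.45), and without 1 library they were 0.090 for Crabp1 (mutant lower left out) and -0.42 for Crabp2 (control upper left out). Rara, Rarg and Cyp26b1 had estimates of -0.15 ± 0.11, 0.24 ± 0.12 and 0.11 ± 0.15 for lower minus upper (log2, SE, limma adjusted p = 0.74, 0.56 and 0.87).

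**Figure D4:**
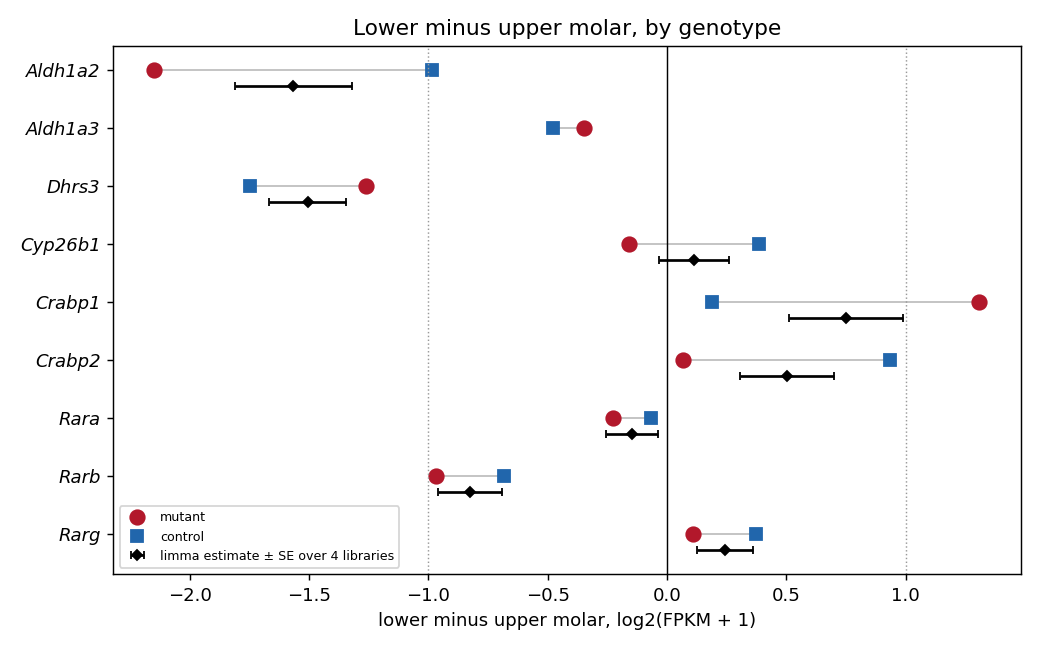
Lower minus upper molar on log2(FPKM + 1) for each gene, with a circle for mutants and a square for controls, and the limma estimate with its SE as a diamond (not fitted for Aldh1a3). Dotted lines mark a 2-fold difference on this scale. Aldh1a2, Aldh1a3, Dhrs3, Rara and Rarb lay below 0 in both genotypes, Crabp1, Crabp2 and Rarg above 0, and Cyp26b1 on both sides.

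limma called 0 of the 8 tested genes higher and 1 lower in lower molars (Dhrs3), where it called 0.39% of all tested genes higher and 0.333% lower. At an unadjusted limma p under 0.05 there were 5 of 8, against 10.2% of tested genes. As with genotype, the choice of the list with earlier results known keeps these counts from testing the pathway. The median estimate of the 8 genes was -0.017, beside -0.037 over all tested genes. On log2(FPKM + 1), at least 2-fold differences were seen for 3 of the 8 in mutants (Aldh1a2, Dhrs3 and Crabp1), against 1.28% of tested genes. In controls 1 of the 8 reached this on the same scale (Dhrs3), against 0.971%. As ratios of FPKM, Rarb in mutants (0.382) and Aldh1a2 (0.494) and Crabp2 (2.06) in controls were also beyond 2-fold.

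Put side by side, Aldh1a2, Aldh1a3, Dhrs3 and Rarb shared 1 order of the libraries. The mutant lower molar was lowest, then the control lower molar, then the mutant upper molar, and the control upper molar was highest. This order held for 4 of the 9 genes (3 of the 8 tested), against 6.49% of all tested genes. It was seen in the values before it was counted, and it has no test. For Aldh1a3 the middle values, 0.713 FPKM in the mutant upper and 0.682 FPKM in the control lower molar, rested on about 36 and 30 reads. For Rarb in upper molars the counting interval of mutant over control included 1 (0.935, 0.747 to 1.17), as did that of Dhrs3 in lower molars.

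Sums of several marker lists differed along with these comparisons. The 4 lower jaw markers summed to 34.5 FPKM in the mutant lower and 11.3 FPKM in the mutant upper molar, against 46.0 FPKM in the control lower and 16.1 FPKM in the control upper molar, with Hand1 at 0 throughout and Hand2 at or under 0.0532 FPKM. The 6 markers of oral mesenchyme around the tooth, which include Osr1 and Osr2, summed to 171 and 123 FPKM in the mutant lower and upper molar, against 118 and 105 FPKM in the control lower and upper molar. The higher mutant sums came from Osr1 and Osr2. Foxf1 of the same list had 29.4 and 38.1 FPKM in the mutant lower and upper molar, against 42.6 and 48.7 FPKM in the control lower and upper molar. Foxf2 had 5.40 and 7.94 FPKM in the mutant lower and upper molar, against 6.75 and 13.7 FPKM in the control lower and upper molar. Both were below the control of the same molar and lower in lower molars, the other way round from Osr1 and Osr2, and Tbx22 and Alx1 were at or under 0.505 and 0.443 FPKM. The 5 osteoblast markers summed to 40.3 and 43.5 FPKM in the mutant lower and upper molar, against 63.2 and 75.7 FPKM in the control lower and upper molar, with Bglap at 0 throughout. The 5 cartilage markers summed to 7.89 and 7.84 FPKM in the mutant lower and upper molar, against 11.2 and 14.0 FPKM in the control lower and upper molar. Of these, Sox9, a transcription factor of cartilage, had 1.60 and 3.43 FPKM in the mutant lower and upper molar, against 5.04 and 8.78 FPKM in the control lower and upper molar. The 8 endothelial markers summed to 36.9 and 31.1 FPKM in the mutant lower and upper molar, against 40.4 and 43.0 FPKM in the control lower and upper molar. The osteoblast, cartilage and endothelial sums were lower in both mutants than in both controls. The lower cartilage sums of the mutants came mainly from Sox9. Col2a1 of the cartilage list had 6.23 FPKM in the mutant lower molar, against 5.96 FPKM in the control lower molar. In upper molars Col2a1 was only slightly lower in the mutant than in the control. Acan, Matn1 and Col9a1 were under 1 FPKM in every library. The 7 nerve and glial markers summed to 6.16 and 7.96 FPKM in the mutant lower and upper molar, against 4.09 and 2.80 FPKM in the control lower and upper molar. The 10 molar mesenchyme markers summed to 922 and 907 FPKM in the mutant lower and upper molar, against 865 and 857 FPKM in the control lower and upper molar. Pax9, Lhx6, Lhx8, Col1a1 and Twist1 were above the control of the same molar. Msx1 and Prrx1 were below it, and Barx1, Vim and Pdgfra went both ways. Msx1 had 98.4 and 135 FPKM in the mutant lower and upper molar, against 126 and 150 FPKM in the control lower and upper molar. The nerve and glial sums and the molar mesenchyme sums were higher in both mutants than in both controls. The part of cell populations in the differences of the retinoic acid genes was not tested.

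Beyond the 9 genes, 52 further retinoid genes were read, all found in the tables, of which 24 reached a mean of 1 FPKM and 11 were at 0 in every library. They do not cover the whole pathway. limma called 0 of these 24 by genotype in either direction, where it called 0.343% of all tested genes higher and 0.457% lower. At shares this low, 0 of 24 says little about these genes. An unadjusted limma p under 0.05 was found for 8 of the 24, against 13.2% of all tested genes. These 8 include Akr1b3, whose values are not read as a level below. The list was chosen with earlier results of these data known, so this count is no test either. Of the 24, 6 were above the control in both molars and 10 below it, beside 27.2% and 32.4% of all tested genes.

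Upstream of the synthases, Rdh10, the retinol dehydrogenase that supplies retinal in the embryo, had 3.20 and 2.99 FPKM in the mutant lower and upper molar against 3.82 and 5.25 FPKM in the control lower and upper molar. Both mutants were below both controls, without reaching the threshold (limma adjusted p = 0.30). Stra6, a membrane transporter of retinol, was above in upper molars, with 0.934 and 2.06 FPKM in the mutant lower and upper molar against 0.782 and 1.59 FPKM in the control lower and upper molar. Dgat1, Rdh11, Rdh13, Rdh14, Dhrs4 and Adh5 had genotype estimates between -0.051 (Dhrs4) and 0.40 (Dgat1), and 0 of these 6 passed the test (limma adjusted p from 0.26 to 0.94). Lrat, which esterifies retinol for storage, was at or under 0.0116 FPKM, and Aldh1a1, another synthase, at or under 0.296 FPKM. Akr1b3 was listed at 8.35 FPKM in the control upper molar and at or under 0.000622 FPKM in the other 3 libraries, which is not read as a level here.

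Among receptor partners, Rxra had 12.2 and 13.6 FPKM in the mutant lower and upper molar against 13.6 and 13.7 FPKM in the control lower and upper molar. Rxrb had 4.17 and 4.53 FPKM in the mutant lower and upper molar against 2.84 and 3.27 FPKM in the control lower and upper molar, both mutants above both controls without reaching the threshold (limma adjusted p = 0.22). Rxrg was at or under 0.160 FPKM. Ppard, a nuclear receptor that also binds retinoic acid, had an estimate of -0.0097 ± 0.12, and Fabp5, a fatty acid binding protein that carries retinoic acid to it, one of 0.24 ± 0.11 (log2, SE, limma adjusted p = 0.98 and 0.44). Of 8 coregulators, 7 were below the control in both molars, where 32.4% of all tested genes were. None of the 8 passed the test, and 2 had an unadjusted limma p under 0.05, against 13.2% of all tested genes. Among these Nrip1, a corepressor of nuclear receptors, had 5.12 and 4.53 FPKM in the mutant lower and upper molar against 6.83 and 6.13 FPKM in the control lower and upper molar (limma adjusted p = 0.24).

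Of 15 genes with a known response to retinoic acid in mouse, 5 reached a mean of 1 FPKM and 4 were at 0 in every library. The Hox genes Hoxa2, Hoxb1 and Hoxb2 were among those at 0. Tgm2, a transglutaminase, had 2.35 and 2.14 FPKM in the mutant lower and upper molar against 3.28 and 3.40 FPKM in the control lower and upper molar. Zfp703, a zinc finger repressor, had 29.0 and 33.9 FPKM in the mutant lower and upper molar against 24.6 and 25.9 FPKM in the control lower and upper molar. Neither passed the test (limma adjusted p = 0.24 and 0.32). Of the 5, 2 were above the control in both molars, as were 27.2% of all tested genes, and 2 were below it in both, as were 32.4%.

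**Figure D5:**
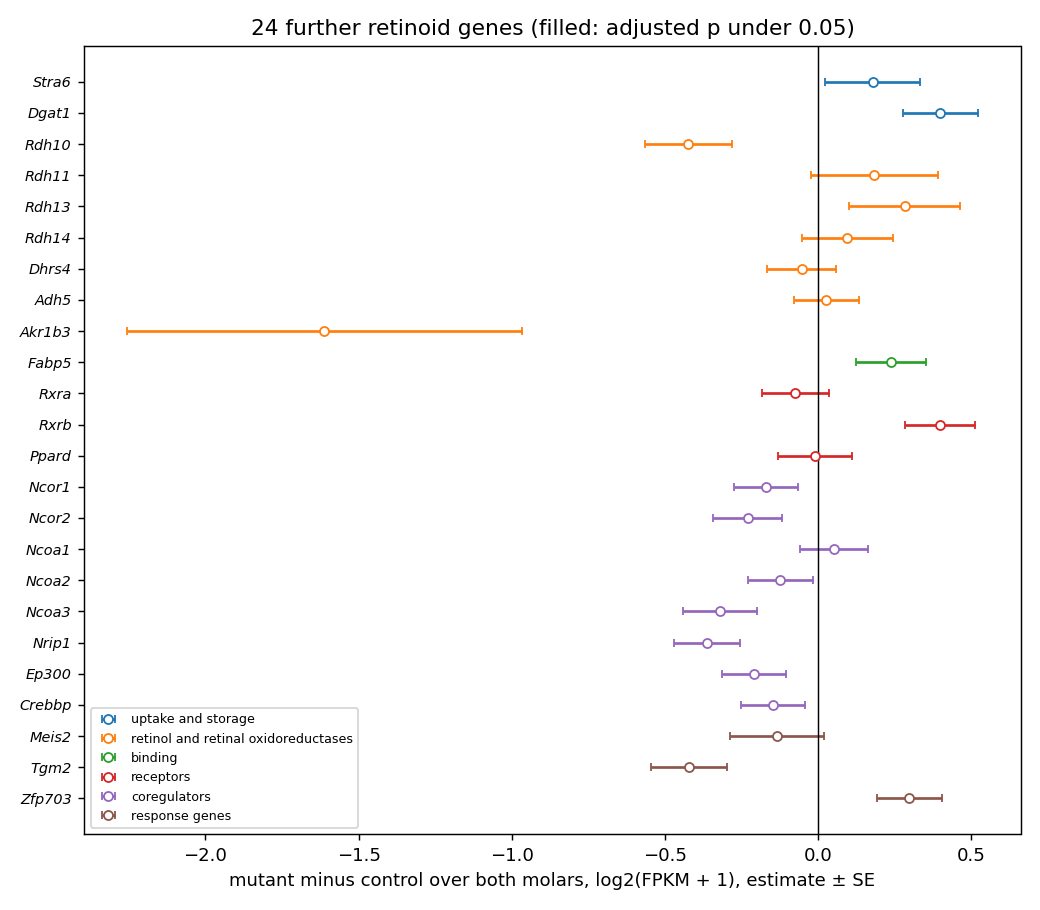
limma estimate of mutant minus control over both molars on log2(FPKM + 1), with its SE, for 24 further retinoid genes grouped by role, each shown under the first role that lists it. A filled point would mark an adjusted p under 0.05, and none of the 24 is filled. The 8 coregulators lie between -0.36 and 0.054.

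Genes with a like pattern were sought for the 2 genes of widest range, Aldh1a2 (2.51 on the log2 scale) and Dhrs3 (2.08). Among 8073 genes averaging 2 FPKM or more, the nearest to Aldh1a2 by distance between centred log2(FPKM + 1) values over the 4 libraries were Figf, Crym, Enpp1 and Igfbp5, at distances of 0.26 to 0.45. Igfbp5, an insulin-like growth factor binding protein, had 6.34 and 34.9 FPKM in the mutant lower and upper molar against 14.2 and 37.3 FPKM in the control lower and upper molar. Crym, a thyroid hormone binding protein, had 1.01 and 8.73 FPKM in the mutant lower and upper molar against 4.23 and 12.8 FPKM in the control lower and upper molar. The nearest to Dhrs3 were Plxna2, Diras2, Cpm and Slc1a3, at distances of 0.49 to 0.59. With 4 libraries such likeness is a description only.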

How the data were processed

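The authors deposited 1 table per library with FPKM, normalised by the authors to mapped reads, and coverage for 28107 RefSeq transcripts, per the file headers. For each library 1 ratio of summed coverage to summed FPKM was taken, from 0.577 in the control lower to 0.657 in the mutant upper molar. Alignment to mm9 used TopHat 1.4.1 with Bowtie 0.12.7, per the submitters' processing notes. How strand and multiply aligned reads were handled is not given in the sources used here, nor is the Cufflinks version. Per the labels' protocols, cDNA was amplified with the NuGEN Ovation kit before Nextera library preparation, so reads are not independent molecules.

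FPKM was summed per gene symbol. Loci are the range of a gene's transcripts on mm9, counted from 1. Coverage times length, divided by 44.2 bases per read (the median of genes with about 1 read), gave approximate reads, and intervals and floors (3 reads) from them cover counting error only. limma 3.58.1 in R 4.3.3 was fitted to log2(FPKM + 1) of the 10502 genes averaging 1 FPKM or more, with genotype and molar as additive terms, an intensity trend and two-sided p-values adjusted by Benjamini-Hochberg over all genes at 0.05. It has 1 residual and 5.77 prior degrees of freedom and was tested on simulated data. Whether upper and lower molars shared embryos is not stated in the labels.

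Alternatives were another pseudocount, filters of none or 5 FPKM, rescaling by median ratios, the highest transcript only, no trend, no second term, and leaving out each library. The genes named were the 9 members, further retinoid genes averaging 1 FPKM or near the floor, and the 4 nearest patterns. Of the further genes not named, values are given as counts. Some genes of the retinoid lists are not reported here and are left out of their counts, but not of the fit. Members, lists and rules were chosen with earlier results of these data known. Markers were matched by symbol or RefSeq synonym. Motifs were searched in RefSeq promoter windows of GRCm38.p6.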

Additional observations from a re-analysis of the deposited data

Results flagged for a closer look

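Rarg was 0.127 lower in the mutant than in the control in the lower molar (-0.127) and 0.137 higher in the upper molar (log2). Cyp26b1 was lower in the lower than in the upper molar in mutants (-0.159) and higher in controls (0.385). Each was singled out because the only library pair of one group went one way and that of the other group the opposite way, by at least 0.1 on the log2 scale. Neither difference was tested.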

How the results depend on the processing

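By genotype, limma called 84 genes and 1 of the 8 tested members (Crabp2). The counts were 0 and 0 with no filter on low values (all 22072 genes and 9 members), 146 and 2 (Aldh1a2 and Crabp2) at a mean of at least 5 FPKM, 15 and 0 after rescaling, 0 and 0 with the highest transcript only, 38 and 0 without an intensity trend, and 7 and 0 without a term for the molar (no replicate block). Leaving out 1 library gave 5 to 18 genes and 0 to 1 members. By molar, limma called 76 genes and 1 member (Dhrs3). The counts were 0 and 0 with no filter, 127 genes at a mean of at least 5 FPKM, 1 and 0 with the highest transcript only, and 12 and 0 without a term for genotype. Leaving out 1 library gave 0 to 21 genes and 0 to 1 members. At least 2-fold counts became 2 in the upper molar between genotypes (pseudocount 0.1 or highest transcript only, adding Dhrs3), and 3 between control molars (pseudocount 0.1, adding Aldh1a2 and Crabp2). Leaving out a library also leaves no second term, so genotype and molar are unbalanced, and estimates then ran from -2.01 to 0.13 for Aldh1a2, -1.45 to 0.30 for Dhrs3, -0.70 to 0.26 for Rarb, -0.11 to 0.11 for Rara and -0.18 to 0.19 for Rarg by genotype, and from -0.22 to 0.45 for Cyp26b1 and -0.42 to 1.42 for Crabp2 by molar. Rara was at -0.14 by genotype with the highest transcript only. Rescaling moved the median of all genes by under 0.1. Apart from the construction of the leave-one-out fits, the cause was not tested. No paired analysis beyond the additive fit was possible because each genotype and molar had 1 library. Levels under about 0.101 to 0.115 FPKM on 2 kb rest on 3 reads or fewer. Aldh1a3, and Dhrs3 in lower molars, lie above this, and their few reads give wide counting intervals.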
